A study of Mus musculus with 4 samples.

Results

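Antioxidant genes of the kind controlled by NRF2 were examined in cardiac endothelial cells sorted from mice labelled Gata4 KO and from their controls. The set holds 10 genes taken by symbol (Hmox1, Nqo1, Gclc, Gclm, Txnrd1, Srxn1, Gsr, Cat, Sod2 and Prdx1), all 10 of which were found among the 38087 genes listed and all 10 of which varied between libraries and were tested. The source tissue was ventricle of C57BL/6 hearts, the sorted cells were eGFP+ and CD31+, and 2 libraries were made for each group. Mice of both groups carried a Tie2-CreERT2 transgene and a Cre-dependent eGFP reporter in the Rosa locus, and both ate tamoxifen chow at 40 mg/kg body weight from 4 weeks of age until isolation at 8 weeks, after 4 weeks of induction. In the Gata4 KO group tamoxifen also led to Cre/LoxP recombination of Gata4, while the labels name no LoxP-targeted Gata4 allele for the controls. Tie2 regulatory sequence is active in endothelium and also in some blood cells, so the sort by eGFP and CD31 defines the cells as much as the promoter does. The table headers join a pair of numbers in the name of each control library and give a single number for each Gata4 KO library, while the title of control 2 gives only the first number of its pair. Pooling, if there was any, and genotype cannot be told apart.

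NRF2, encoded by Nfe2l2, is a transcription factor that is held in the cytoplasm and marked for degradation by KEAP1 until oxidants or electrophiles modify KEAP1. In the nucleus it pairs with small MAF proteins on antioxidant response elements and raises genes for glutathione synthesis, thioredoxin recycling, quinone reduction and haem breakdown, while BACH1 occupies the same elements as a repressor. In endothelium this programme is known as part of the response to flow and oxidised lipids. Cat and Sod2 remove peroxide and superoxide and are also controlled by other factors, such as FOXO proteins and NF-kB.

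Each value below is on a log2 scale on which the median of that gene over the 4 libraries is 0. Because of this centring, the pair of middle values of a gene mirror each other, and levels cannot be compared between genes. A difference is the mean of the Gata4 KO libraries minus the mean of the controls on this log2 scale. In bulk RNA of sorted cells, fewer cells of a type and less RNA per cell cannot be told apart. Gata4 lay at 0.48 and 0.14 in the controls and at -0.14 and -0.46 in Gata4 KO, a difference of -0.61 with a standard error of 0.26 (limma adjusted p = 0.663). The direction is that of the labels, and the value covers the whole gene, deleted part or not. Pecam1, which encodes CD31, differed by 0.07, and the 10 endothelial markers examined had a median difference of 0.16. All 10 of them had a higher mean in Gata4 KO, 5 lay above both controls and 0 below both, and the widest differences were 1.03 in Cldn5, a tight junction gene, and 0.57 in Erg, an endothelial transcription factor gene. None of the 10 had an unadjusted limma p under 0.05, where 2.76% of all tested genes were higher by that rule. Of all tested genes, 48.9% had a higher mean in Gata4 KO, 15.7% lay above both controls and 17.3% below both. Xist, the RNA of the silenced X chromosome, was at its lowest value in both controls and high in both Gata4 KO libraries, and the Y-linked gene Ddx3y was at its lowest value in both Gata4 KO libraries. Sex, which the labels do not give, and genotype therefore cannot be told apart in any difference below.

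The promoters of the genes are shown because the antioxidant response element is the letter pattern on which NRF2 and small MAF proteins pair. RefSeq windows on GRCm38 (mm10) of 250 bases before to 50 after a start were found for 7 of the 10 genes, in 9 windows, and not used here for Hmox1, Gclc and Gsr. The core of the element, TGACNNNGC on either strand, was in 4 of the 9 windows, those of Srxn1, Gclm and Prdx1 and the second of the 3 windows of Txnrd1. Of 32817 mouse windows of the same length, 12.4% held it. A second form, TGAGNNNGC, searched after the sequences were seen, was in 2 windows (Srxn1 and Prdx1) against 17.7% of all, and either form was in 4 windows against 27.8%. The AP-1 site TGACTCA, whose other strand reads TGAGTCA, was in 2 windows, again those of Srxn1 and Prdx1, against 5.2% of all. An AP-1 site can lie inside an antioxidant response element, and in both genes 1 AP-1 site lay inside a match to one of the longer patterns. The stretches below run 5′ to 3′ along the gene's strand up to the annotated gene start, with matches to any of these patterns in capitals. For Srxn1 (chr2:152105274-152105515, plus strand) the capitals mark GCCGACTCA, a lone TGAGTCA and TGAGTCAGC, the last at 45 to 37 bases before the RefSeq start. The TGACNNNGC match of Srxn1 lies after the start, outside the stretch shown.
Srxn1: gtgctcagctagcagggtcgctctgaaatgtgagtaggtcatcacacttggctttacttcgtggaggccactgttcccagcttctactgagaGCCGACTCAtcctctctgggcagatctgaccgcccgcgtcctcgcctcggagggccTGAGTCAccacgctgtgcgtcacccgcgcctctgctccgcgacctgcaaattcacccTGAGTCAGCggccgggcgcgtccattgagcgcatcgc
For Prdx1 (chr4:116685349-116685543, plus strand) they mark the AP-1 site TGACTCA at 237 to 231 bases and the element GCTGAGTCA at 133 to 125 bases before that start. GCTGAGTCA matches TGACNNNGC, and the TGAGNNNGC match of Prdx1 lies after the start, outside the stretch shown.
Prdx1: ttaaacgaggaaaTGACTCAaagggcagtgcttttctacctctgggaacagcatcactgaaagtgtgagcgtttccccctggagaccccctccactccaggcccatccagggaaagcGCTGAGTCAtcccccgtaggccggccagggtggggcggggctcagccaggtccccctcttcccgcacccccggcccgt
For Gclm (chr3:122245307-122245556, plus strand) the capitals mark GCACCGTCA, at 134 to 126 bases.
Gclm: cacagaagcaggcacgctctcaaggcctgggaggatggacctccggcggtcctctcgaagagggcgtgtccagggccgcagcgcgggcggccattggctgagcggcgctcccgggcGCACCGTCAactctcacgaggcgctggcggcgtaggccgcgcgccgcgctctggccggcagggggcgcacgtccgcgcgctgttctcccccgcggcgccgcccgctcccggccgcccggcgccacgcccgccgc
For Nqo1 (chr8:107403207-107403455, minus strand), the gene with the largest difference of the set, no match is in the window. Bases more than 250 before the start were not searched, so an element farther upstream would be missed.
Nqo1: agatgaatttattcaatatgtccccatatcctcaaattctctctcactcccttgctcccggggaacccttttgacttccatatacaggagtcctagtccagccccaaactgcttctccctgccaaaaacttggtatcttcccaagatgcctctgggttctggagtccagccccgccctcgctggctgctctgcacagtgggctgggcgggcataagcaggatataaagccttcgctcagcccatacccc
The match of Txnrd1 lies at 92 to 84 bases before the second of its starts (chr10:82859104-82859132, plus strand), shown with 10 bases on either side.
Txnrd1: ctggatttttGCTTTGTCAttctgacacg
A match is a pattern of letters, and none of these values shows that a factor was bound.

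By limma with Benjamini-Hochberg adjustment over all 14470 tested genes, 0 of the 10 antioxidant genes had an adjusted p under 0.05, where the share of all tested genes was 0% higher and 0% lower. The genes did not move together. Nqo1 was the only gene of the 10 with an unadjusted limma p under 0.05, at 0.00209, and it was lower in Gata4 KO, where 5.36% of all tested genes were lower by that rule and 2.76% higher. The Gata4 KO libraries lay below both controls in 2 genes, Nqo1 and Gclc, and above both in 3, Hmox1, Srxn1 and, by only 0.0022, Prdx1. Over all tested genes, 17.3% lay below both controls and 15.7% above both, so a count of 2 and 3 in 10 is not far from the background. The groups overlapped in the other 5, Gclm, Gsr, Txnrd1, Sod2 and Cat. The median difference of the 10 genes was 0.06, beside -0.01 over all tested genes, and the median size of the difference was 0.21 beside 0.24. Of the 10 genes, 5 had a higher mean and 5 a lower mean in Gata4 KO, against 48.9% and 51.1% of all tested genes, and 5 had an absolute difference under 0.2, against 43.8%. With 2 libraries against 2, an exact two-sided permutation test cannot give a p below 0.333, which is above the threshold.

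**Figure D1:**
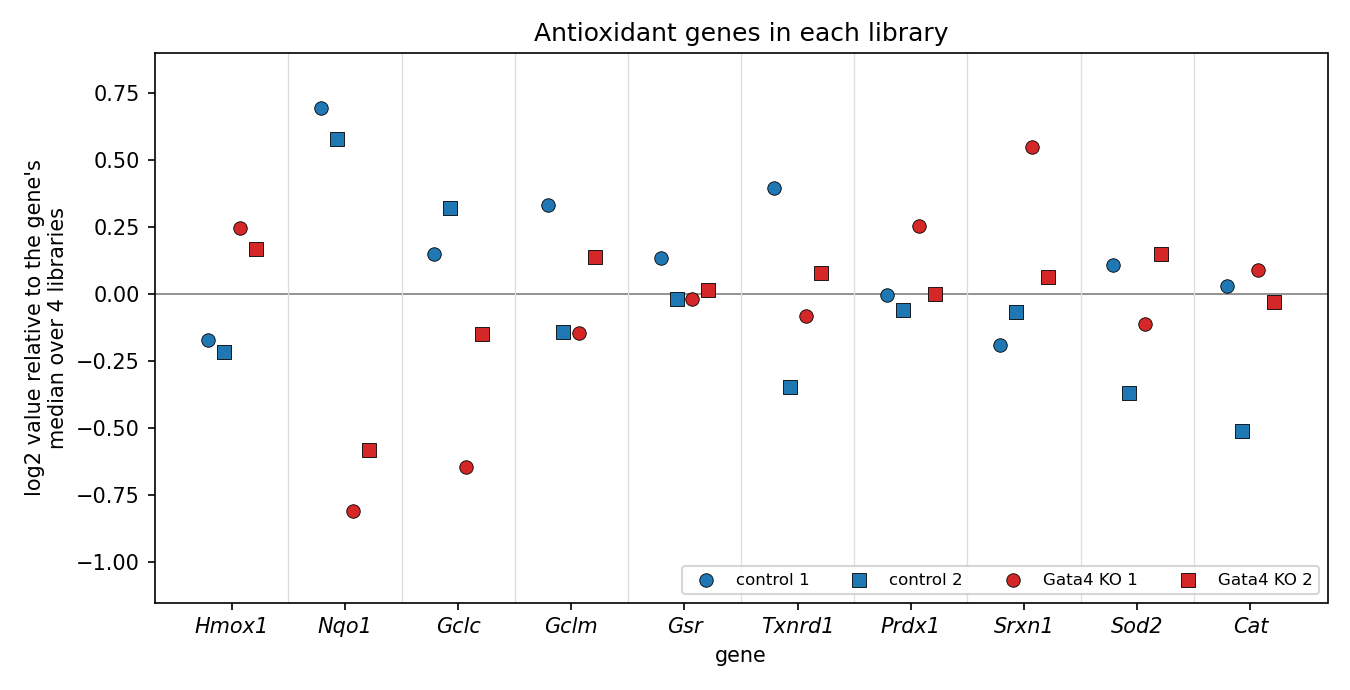
Log2 value of each of the 10 antioxidant genes (x axis) in the 4 libraries (y axis, relative to the gene's median over the libraries), with control libraries in blue and Gata4 KO libraries in red. Nqo1 shows the widest split, with controls at 0.69 and 0.58 and Gata4 KO at -0.81 and -0.58, while Gsr lies within 0.14 of 0 in every library.

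Nqo1 (ENSMUSG00000003849, mm10 chromosome 8, 107388225 to 107403206, protein coding) encodes the quinone reductase that turns quinones into hydroquinones without releasing superoxide. Its values were 0.69 and 0.58 in the controls and -0.81 and -0.58 in Gata4 KO. Both Gata4 KO libraries were low and both controls high, and the groups did not overlap. The means were 0.64 ± 0.08 in control and -0.69 ± 0.16 in Gata4 KO (SD, n = 2 each). The level was 2.51-fold lower in Gata4 KO, a log2 difference of -1.33 with a standard error of 0.23 and a 95% interval of -1.91 to -0.75. The adjusted p by limma was 0.303, and over the alternatives tried it ran from 0.0977 to 0.824, so Nqo1 did not pass under any of them. Of all tested genes, 2.28% had a larger absolute difference and 0.67% a smaller unadjusted p. Leaving out any single library kept the difference between -1.44 and -1.22. The genes outside the lists whose 4 values lay nearest to those of Nqo1, by Euclidean distance over the 4 libraries, were P2ry6 (0.0952), which encodes a receptor for uridine nucleotides, the small nucleolar RNA Rnu73b (0.0973), which is uncertain because such RNAs lie inside host genes, and the uncharacterised gene A930033H14Rik (0.101).

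Gclc and Gclm encode the subunits of the enzyme that begins glutathione synthesis, and both had a lower mean in Gata4 KO. Gclc (ENSMUSG00000032350, chromosome 9, 77754535 to 77794485) encodes the catalytic subunit of glutamate-cysteine ligase, which makes the first and rate-limiting step. Its values were 0.15 and 0.32 in the controls and -0.64 and -0.15 in Gata4 KO. Gata4 KO 1 was the lowest library, and the groups did not overlap. The difference was -0.63 with a standard error of 0.27 and a 95% interval of -1.32 to 0.06, a level 1.55-fold lower (limma adjusted p = 0.663). With Gata4 KO 1 left out it was -0.38, and with Gata4 KO 2 left out -0.88. Gclm (ENSMUSG00000028124, chromosome 3, 122245557 to 122270732) encodes the modifier subunit, which raises the affinity of the catalytic subunit for its substrates. Its values of 0.33 and -0.14 in the controls and -0.15 and 0.14 in Gata4 KO overlapped. Control 1 was the highest library and the controls differed from each other by more than the groups did. The difference was -0.10 with a standard error of 0.28 and an interval of -0.81 to 0.61.

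Gsr (ENSMUSG00000031584, chromosome 8, 33652523 to 33698163) encodes glutathione reductase, which returns oxidised glutathione to its reduced form with NADPH. It had 0.14 and -0.02 in the controls and -0.02 and 0.02 in Gata4 KO. Control 1 stood slightly above 3 libraries that were nearly equal, and the difference was -0.06 with a standard error of 0.22 and an interval of -0.62 to 0.50. Txnrd1 (ENSMUSG00000020250, chromosome 10, 82833951 to 82897712) encodes the cytosolic thioredoxin reductase, a selenoprotein that keeps thioredoxin reduced. It had 0.40 and -0.34 in the controls, at either end of the range, and -0.08 and 0.08 in Gata4 KO, between them. The difference was -0.03 with a standard error of 0.32 and an interval of -0.85 to 0.80, and the gap between the controls, 0.74, was the widest of the 10 genes.

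Hmox1 (ENSMUSG00000005413, chromosome 8, 75093621 to 75100589) encodes haem oxygenase 1, the inducible enzyme that opens haem into biliverdin, iron and carbon monoxide. Its values were -0.17 and -0.21 in the controls and 0.25 and 0.17 in Gata4 KO. Both Gata4 KO libraries were the higher ones, opposite in direction to Nqo1, and the libraries of a group lay within 0.08 of each other. The level was 1.32-fold higher in Gata4 KO, a difference of 0.40 with a standard error of 0.21 and an interval of -0.15 to 0.95 (limma adjusted p = 0.778). Leaving out any single library kept it between 0.36 and 0.44. Hmox1, Nqo1 and Gclc were the 3 genes of the 10 in which the difference between groups was larger than the gap within either group, where 21.9% of all tested genes had that property.

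Prdx1 and Srxn1 act in sequence, since peroxiredoxin 1 reduces peroxide and sulfiredoxin 1 restores peroxiredoxin that has been overoxidised. Srxn1 (ENSMUSG00000032802, chromosome 2, 152105516 to 152111376) had -0.19 and -0.07 in the controls and 0.55 and 0.07 in Gata4 KO. Gata4 KO 1 stood well above the other 3 libraries. The level was 1.35-fold higher, a difference of 0.43 with a standard error of 0.26 and an interval of -0.25 to 1.11 (limma adjusted p = 0.841), which was 0.19 without Gata4 KO 1. Prdx1 (ENSMUSG00000028691, chromosome 4, 116685544 to 116700822) had -0.001 and -0.06 in the controls and 0.25 and 0.001 in Gata4 KO. Gata4 KO 1 again was the highest library, while Gata4 KO 2 was level with control 1. The difference was 0.16 with a standard error of 0.23 and an interval of -0.43 to 0.74, and it was 0.03 without Gata4 KO 1. Both genes hold AP-1 patterns in the promoter stretches above.

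Sod2 (ENSMUSG00000006818, chromosome 17, 13006846 to 13040063) encodes the manganese superoxide dismutase of mitochondria. It had 0.11 and -0.37 in the controls and -0.11 and 0.15 in Gata4 KO, so the groups overlapped, with control 2 the lowest library. The difference was 0.15 with a standard error of 0.27 and an interval of -0.55 to 0.86. Cat (ENSMUSG00000027187, chromosome 2, 103453849 to 103485160) encodes catalase, the peroxisomal enzyme that splits hydrogen peroxide. It had 0.03 and -0.51 in the controls and 0.09 and -0.03 in Gata4 KO. Control 2 was the low library and the other 3 were alike. The difference was 0.27 with a standard error of 0.27 and an interval of -0.44 to 0.98, and without control 2 it was 0.0018. The intervals of all 10 genes but Nqo1 include 0. Those of Gclc and Srxn1 reach -1.32 and 1.11, and those of Txnrd1 and Cat 0.80 and 0.98. These libraries therefore leave room for differences of that size.

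**Figure D2:**
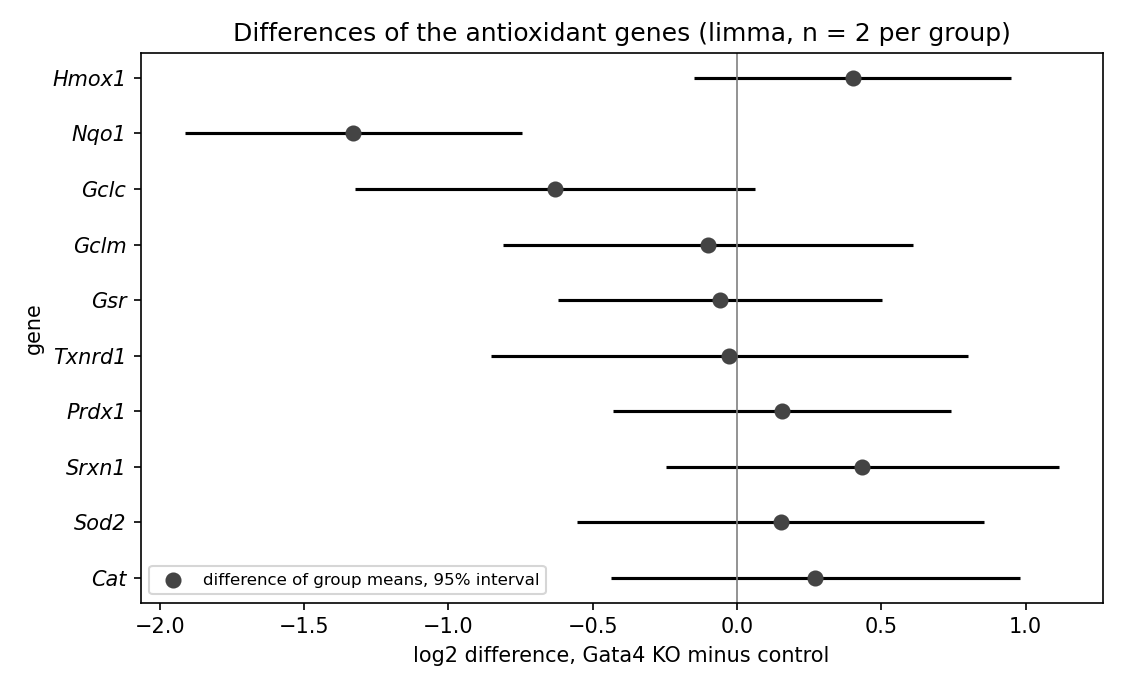
Log2 difference (x axis, Gata4 KO mean minus control mean) of the 10 antioxidant genes (y axis), with the 95% interval from limma as a line. The interval of Nqo1, -1.91 to -0.75, is the only one of the 10 that does not reach 0.

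The regulators of the pathway were measured alongside. Nfe2l2, the gene of NRF2 itself, had 0.03 and -0.18 in the controls and -0.03 and 0.17 in Gata4 KO, a difference of 0.15 with a standard error of 0.23, which was 0.0457 without control 2. Keap1, the gene of its inhibitor, had 0.13 and 0.09 in the controls and -0.25 and -0.09 in Gata4 KO, a difference of -0.28 with a standard error of 0.22. Bach1, the gene of the repressor, had a difference of 0.08, with the Gata4 KO libraries at -0.18 and 0.34 on either side of the controls. The groups overlapped in Nfe2l2 and Bach1, and in Keap1 both Gata4 KO values were below both controls. Among the small MAF partners, Maff had a difference of 0.48, which was 0.27 without Gata4 KO 1. Mafk had one of 0.90, which rested on a value of 1.57 in Gata4 KO 2 and was 0.13 without that library. Of 12 regulators tested, 0 had an adjusted p under 0.05 in either direction and 0 an unadjusted limma p under 0.05. In 3 of the 12 the Gata4 KO libraries were above both controls (Maff, Mafk and Sqstm1, the gene of the autophagy receptor that binds KEAP1, at 0.12) and in 1 below both, where all tested genes gave 15.7% and 17.3%. The median difference was 0.09, and leaving out control 1 gave 0.24, control 2 -0.0002 and Gata4 KO 2 0.0084.

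Other genes known as NRF2 targets had lower values more often than higher ones. Of 24 listed, 22 were tested, since Slc7a11, the cystine transporter gene, and the glutathione peroxidase gene Gpx2 had the same value in every library. Of the 22, 0 had an adjusted p under 0.05 in either direction. In 9 the Gata4 KO libraries were below both controls, against 17.3% of all tested genes, and in 1, the carbonyl reductase gene Cbr1 at 0.51 (0.23 without Gata4 KO 1), they were above both, against 15.7%. The median difference was -0.18, beside -0.01 over all tested genes. Those with an unadjusted limma p under 0.05 were 3, all lower, where 5.36% of all tested genes were lower by that rule. Mgst1, a membrane-bound glutathione transferase gene, had 0.52 and 0.56 in the controls against -0.52 and -0.76 in Gata4 KO, a difference of -1.18 with a standard error of 0.22 (limma adjusted p = 0.329). Ephx1, the microsomal epoxide hydrolase gene, had 0.27 and 0.58 against -0.27 and -0.52, a difference of -0.82 with a standard error of 0.25. Gsta4, the gene of a glutathione transferase for lipid aldehydes, had 0.65 and 0.24 against -0.29 and -0.24, a difference of -0.71 with a standard error of 0.25. The groups did not overlap in any of the 3. Idh1, an NADPH-forming dehydrogenase gene, followed with -0.63. G6pdx, the gene of the enzyme that supplies NADPH, is X-linked and had a difference of -0.15.

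Among 14 further glutathione genes, 4 lay above both controls and 3 below both, against 15.7% and 17.3% of all tested genes. The median difference was 0.09 and turned to -0.15 without Gata4 KO 1. Of the 14, 0 had an adjusted p under 0.05 in either direction. By an unadjusted limma p under 0.05, 1 was lower, Gpx3, and 0 were higher, against 5.36% and 2.76% of all tested genes. Gpx3, the gene of the secreted glutathione peroxidase, had 0.77 and 0.51 in the controls and -0.51 and -1.30 in Gata4 KO. That is a level 2.92-fold lower, a difference of -1.55 with a standard error of 0.34 (limma adjusted p = 0.383), the largest absolute difference of the pathway genes examined here. Gss, the gene of glutathione synthetase, which completes what glutamate-cysteine ligase begins, had a difference of 0.74, opposite in sign to Gclc, with Gata4 KO 1 at 0.76 the highest library, and it was 0.40 without that library. Ggt5 had 0.65, which was 0.42 without Gata4 KO 1, and Ggct 1.01, which rested on a control 2 value of -1.43 and was 0.36 without it.

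The thioredoxin and peroxiredoxin genes outside the set had a median of -0.21, which was -0.34 without control 1 and -0.13 without Gata4 KO 2. Of 17 tested, 8 lay below both controls and 0 above both, against 17.3% and 15.7% of all tested genes, and 0 had an adjusted p or an unadjusted limma p under 0.05 in either direction. Prdx2, Prdx3, Prdx4 and Prdx6 had differences of -0.25, -0.26, -0.46 and -0.46, all 4 below both controls, and the groups overlapped in Prdx5. In Prdx3 and Prdx4 the smallest gap between the groups was only 0.04. Prdx1 stood above both controls by 0.0022, which is nearly a tie. Prdx4 is X-linked. Leaving out 1 library brought these as near to 0 as -0.11 in Prdx2 and -0.23 in Prdx4, both without control 2, and -0.13 in Prdx3 and -0.29 in Prdx6, both without Gata4 KO 2. Msra, the gene of a methionine sulfoxide reductase, had -0.44, which was -0.22 without control 2, and Sesn3, a sestrin gene, -0.90, which was -0.36 without control 1. Beside Sod2, the cytosolic superoxide dismutase gene Sod1 had 0.09 and its copper chaperone gene Ccs 0.40, both with overlapping groups. Sod3, the gene of the secreted superoxide dismutase, had 0.48 and 0.37 in the controls against -0.37 and -0.38 in Gata4 KO, a difference of -0.80 with a standard error of 0.21 (limma adjusted p = 0.443).

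Of the genes of haem and iron handling, to which Hmox1 is close by function, 9 had a higher and 5 a lower mean in Gata4 KO. Of the 14 tested, 7 lay above both controls and 1, the ferrochelatase gene Fech at -0.39 (-0.19 without Gata4 KO 2), below both, where all tested genes gave 15.7% and 17.3%. The median difference was 0.22, which was 0.34 without control 2 and 0.36 without Gata4 KO 2, and 0 had an adjusted p under 0.05 in either direction. Along the route from haem to bilirubin, Hmox2, the gene of the constitutive haem oxygenase, had -0.26 and -0.23 in the controls and 0.30 and 0.23 in Gata4 KO. Its difference of 0.51, with a standard error of 0.21, was close to the 0.40 of Hmox1, and in both genes the libraries of a group were close together. The biliverdin reductase gene Blvra had 0.67, which was 0.39 without control 2, and Blvrb 0.08 with overlapping groups. Among genes of haem synthesis, Alad had a difference of 0.93 with a standard error of 0.31, Cpox 0.72 (0.43 without control 2) and Ppox 0.25. Alas1, the gene of the first step, had -0.05 and Urod -0.09, both with overlapping groups. Alad was the only gene of this list with an unadjusted limma p under 0.05, at 0.0311 (adjusted p = 0.544). It was higher, as were 2.76% of all tested genes by that rule. Tfrc, the transferrin receptor gene, had 0.69, which was 0.40 without control 2. Erythroid markers, from cells that make haem, had a median difference of -0.44, with 3 of 6 tested below both controls and 0 above both. Alas1, Urod, Blvra, Blvrb, Ppox and Fech, like Cbr1, G6pdx, Sqstm1, Prdx2, Prdx3 and Prdx5 above, were picked for naming after their values were seen.

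Of 8 genes of oxidant-producing enzymes tested, 3 lay below both controls and 0 above both, against 17.3% and 15.7% of all tested genes, with a median of -0.34. None of the 8 had an adjusted p under 0.05, and 2, Xdh and Duox2, had an unadjusted limma p under 0.05 and were lower, against 5.36% of all tested genes. Xdh, the xanthine oxidoreductase gene, had 0.28 and 0.37 in the controls and -0.28 and -0.38 in Gata4 KO, a difference of -0.66 with a standard error of 0.22. Duox2 had -0.60, with both Gata4 KO libraries tied at its lowest value, so that its spread there is hidden. Cyba, a gene of the phagocyte-type NADPH oxidase, had -0.57, which was -0.27 without Gata4 KO 2. The median of this list was 0.04 without control 1.

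**Figure D3:**
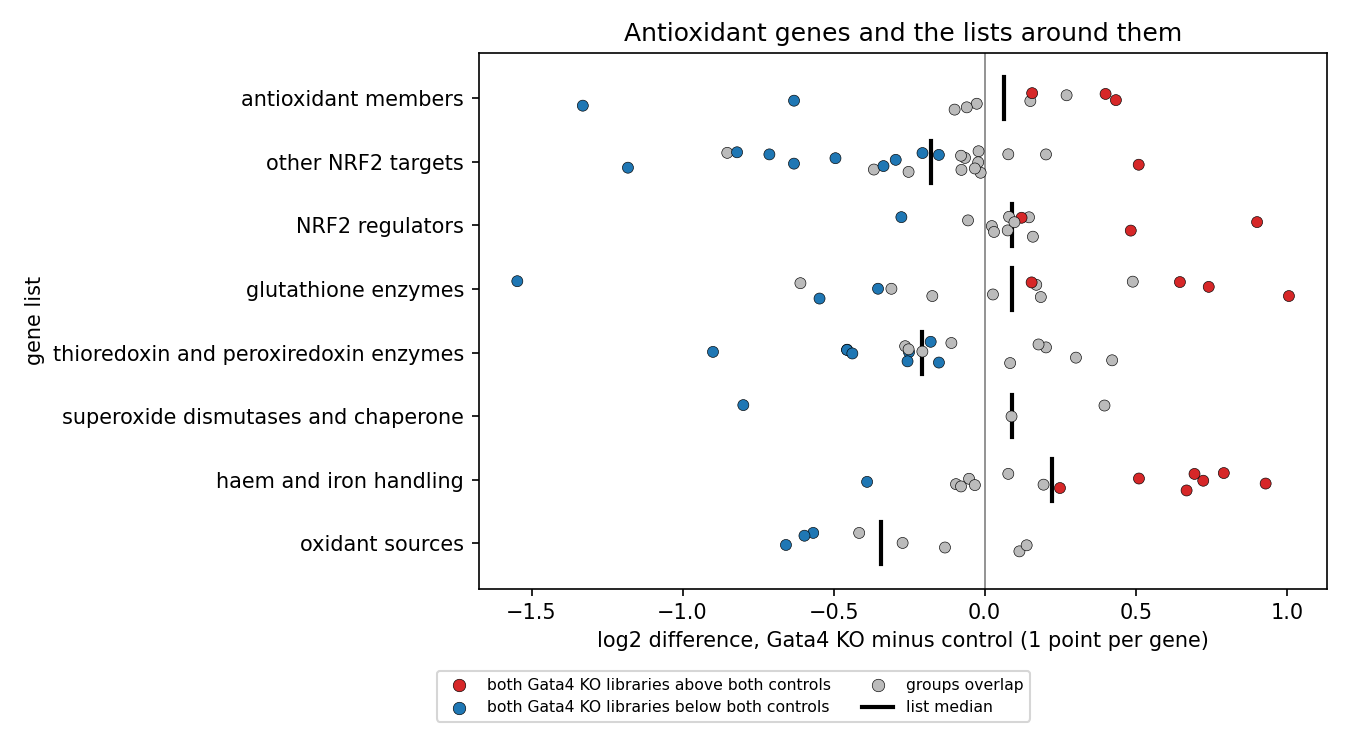
Log2 difference (x axis, Gata4 KO minus control) of every tested gene of the antioxidant set and of the 7 lists around it (y axis), with list medians as black bars and colours for genes whose groups do not overlap. The thioredoxin and peroxiredoxin list has 8 genes below both controls and 0 above, and the haem list 7 above and 1 below.

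Markers of other cell types also had different values in the groups, though 0 of them had an adjusted p under 0.05 by limma as fitted here, and some of the antioxidant genes are also expressed in those cells. Under some alternatives limma did call Myl7 (adjusted p = 0.0037 with a mean trend) and Lyve1 (0.0393 with a mean trend), and Mrc1 and Postn (0.0479 and 0.0462 without tied genes), all lower. Both Gata4 KO libraries of Myl7 are tied at its lowest value, so that its spread there is hidden. Egr3, an immediate early gene, was called higher (limma adjusted p = 0.0462 without tied genes). Over all tested genes, 17.3% were below both controls and 15.7% above both. Fibroblast markers were below both controls in 10 of 10 genes, with list means of 1.26 and 0.33 in the controls and -0.33 and -0.98 in Gata4 KO. Macrophage markers were below both controls in 10 of 11, with means of 0.75 and 0.32 against -0.60 and -0.46. Lymphatic endothelial markers were below in 6 of 7 (means 0.67 and 0.75 against -0.48 and -1.11), and cardiomyocyte markers in 7 of 11 (means 0.40 and 0.39 against -0.26 and -0.61). Those cardiomyocyte means include Myl7, with a difference of -4.69, and the median difference of that list was -0.40. Immediate early and dissociation genes, which can rise with cell handling among other stimuli, were above both controls in 14 of 19. They were below both in 1, and the groups overlapped in 4. Their means were -0.48 and -0.28 against 0.21 and 0.42, and handling itself was not measured. Pericyte and smooth muscle markers were mixed, with 4 of 9 below both controls and 1 above, and neutrophil markers overlapped in 5 of 6, with a median of 0.31. In Nqo1 the gap was 0.12 between the controls and 0.23 between the Gata4 KO libraries. The order of libraries within a group therefore cannot tell which of these markers Nqo1 follows. Values are centred by gene, so whether a defining marker is absent cannot be read from them. Sorting for eGFP and CD31 is meant to leave out fibroblasts, cardiomyocytes and most macrophages, while lymphatic endothelium carries CD31. The part of these cells, and of any handling response, in the values of Nqo1, Gclc, Mgst1, Gpx3, Sod3 and Hmox1 was not tested.

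**Figure D4:**
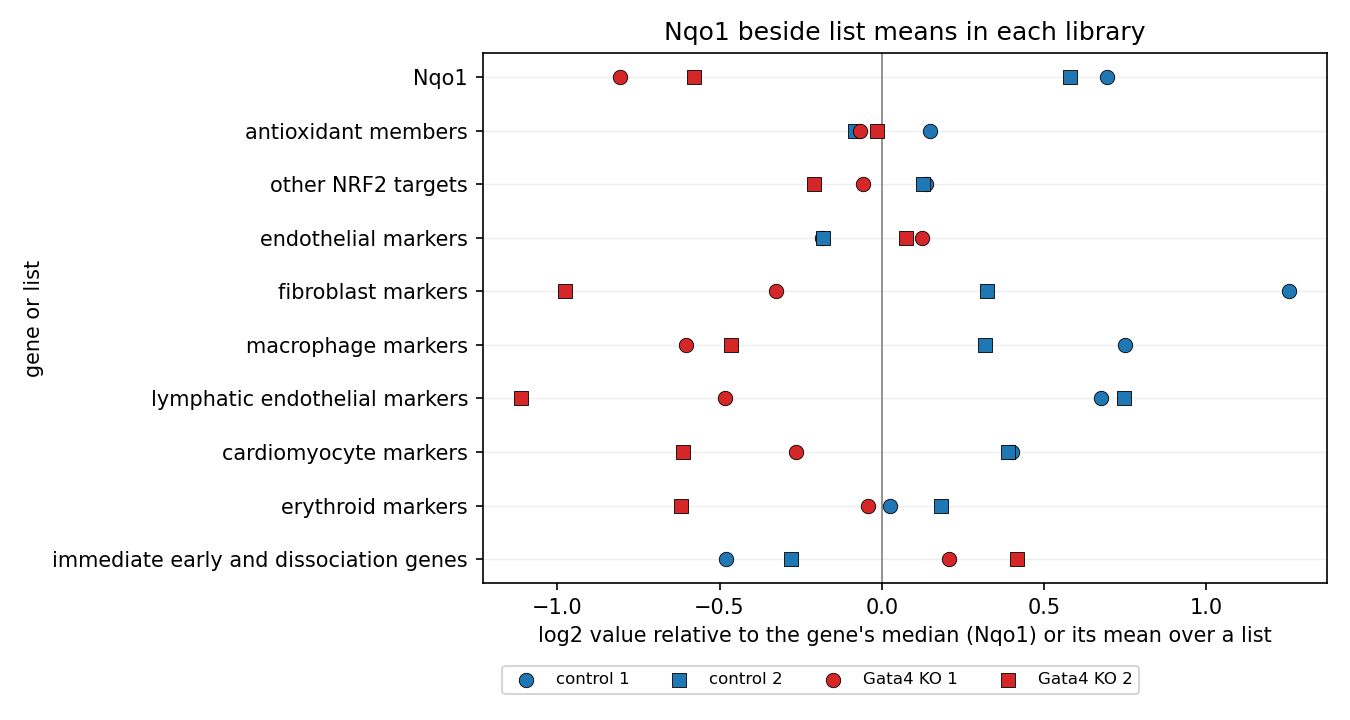
Log2 value of Nqo1 and the mean over each list (x axis) in the 4 libraries, with control in blue and Gata4 KO in red (y axis, gene or list). Nqo1 and the fibroblast, macrophage, lymphatic and cardiomyocyte means lie higher in both controls, while the mean over the 10 antioxidant genes lies between -0.08 and 0.15 in every library. The cardiomyocyte means include Myl7, with a difference of -4.69.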

How the data were processed

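RNA was sequenced from 2 control and 2 Gata4 KO libraries, all of run 2110. Values deposited by the authors are log2 values, split over 2 tables by the sign of the difference between groups. An Ensembl annotation and a fold-change listing are named per the file headers, and mm10 as the build per the submitters' processing notes. For the aligner, the quantification and the normalization of libraries, the sources used here give nothing, and depth is unknown. From the values, each gene's median over the libraries is 0 (tolerance 1e-05). The signed fold column, a unit of its own that the authors deposited, was not used.

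The tables were joined. Of 38087 genes, 23617 had the same value in every library and were not tested, leaving 14470. The group comparison used limma 3.58.1 under R 4.3.3 (eBayes on lmFit, no trend, two-sided), with Benjamini-Hochberg adjustment over all tested genes and a threshold of 0.05. Intervals use 4.96 degrees of freedom. The fit was also run on simulated data with planted differences and spreads drawn from the same fit. That run cannot show whether the fit suits these libraries. Coordinates come from GENCODE M21 and promoters from RefSeq, both on the same build. Replicate numbers follow the order of deposition and pair no libraries. The labels do not say whether libraries of a group are separate animals, so the spread behind each p-value is that of the libraries and may be technical. The 10 genes and the lists were chosen with earlier results of these data known. Of each list, up to 4 genes with the smallest p are named, with Nfe2l2, Keap1 and Bach1 always. Some genes of the lists are not reported here by name. Alternatives were each library left out, a mean trend, a robust spread, tied genes left out, all genes kept, and library medians or quantiles made equal.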

Additional observations from a re-analysis of the deposited data

How the results depend on the processing

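Of the 10 antioxidant genes, 0 passed an adjusted p of 0.05 by limma under any alternative, and Nqo1, Gclc, Hmox1, Srxn1, Cat and Prdx1 kept their direction under all of them. Directions turned when a library was left out in Gclm (range -0.34 to 0.14, with 0.14 without control 1 and 0.04 without Gata4 KO 1), Txnrd1 (-0.40 to 0.34, with 0.34 without control 1 and 0.05 without Gata4 KO 1), Gsr (-0.14 to 0.0184, with 0.0184 without control 1) and Sod2 (-0.0885 to 0.39, with -0.0885 without control 2). The same held for Bach1 (-0.18 without Gata4 KO 2, range -0.18 to 0.34), Ccs (-0.0035 without Gata4 KO 1, range -0.0035 to 0.80), Sod1 (-0.0218 without Gata4 KO 1, range -0.0218 to 0.20) and Blvrb (-0.39 without control 1 and -0.25 without Gata4 KO 1, range -0.39 to 0.55). Over all tested genes the fit reported called 0, and leaving out any library or quantile normalization also called 0. A mean trend called 27, leaving out tied genes 51, keeping all listed genes 9, a robust spread 7 and equal library medians 7. The cause was not tested. The median difference of the 10 genes, 0.06, was 0.26 without control 1 and -0.11 without control 2. Depth is unknown, so counting error could not be set beside any value. No paired analysis was possible because the labels give the groups no shared replicate numbers.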
